A study of Mus musculus with 4 samples.

Results

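Tendon, cartilage and bone are built by related mesenchymal cells, and 10 genes that mark or steer those fates were followed by symbol through the expression tables of mouse embryonic fibroblasts. They were Scx, Mkx, Tnmd and Thbs4 of tendon, Sox9 of cartilage, Runx2 and Alpl of bone, the calcification inhibitor Mgp, and the matrix genes Tnn and Postn. All 10 were found among 22499 symbols compared. They were picked for how they differed between these same libraries, so their differences are given as descriptions and no test was made on them. The average FPKM over the libraries was at least 1 for 9 of them, and 11592 genes in all passed that filter. FPKM counts sequenced fragments relative to transcript length in kilobases and to the mapped fragments of a library.

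Primary fibroblasts were grown from minced, trypsin-digested C57BL/6 embryos, and poly(A)-selected RNA gave 1 library for each of 4 genotypes. The labels name them Wild-type, Gadd45-/-, G3 Terc-/- and G3 Gadd45-/-Terc-/- (dKO), and the design text names the first gene Gadd45a. Terc encodes the RNA template of telomerase, and mice bred without it to the third generation (G3) carry short telomeres, while Gadd45a encodes a stress-induced protein. The last library is called G3 dKO below. With a single library per genotype no difference has a replicate check, and neither embryo age nor the number of embryos behind a culture was given in the sources used here.

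During development the helix-loop-helix factor Scx and the homeobox factor Mkx act in tendon progenitors, and Tnmd, a membrane glycoprotein, appears as the tendon cells mature. Sox9 opens the cartilage programme and Runx2 the bone programme, and the alkaline phosphatase made from Alpl frees phosphate for mineral. Fibroblast cultures from whole embryos hold mesenchyme of many sites, and periostin and the tenascins are matrix proteins that such cells secrete.

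The labels were checked first. Gadd45a stood at 22.9 FPKM in the wild-type library, 33.9 in the library labelled Gadd45-/-, 31.4 in the library labelled G3 Terc-/- and 45.1 in the library labelled G3 dKO, so it went against the label in both libraries named as lacking it. With 1 value per gene its exons could not be looked at singly, so the level does not settle the genotype. Terc was listed at 0.530, 0.259, 0 and 0 FPKM, libraries in that order, which goes with the G3 labels, though values this low on so short a transcript stand for very few fragments. Genotypes are therefore given as labelled throughout. The library labelled Gadd45-/- also held the Y-linked Ddx3y at 16.4 FPKM with Xist at 0.154 FPKM, whereas Xist lay between 24.0 and 34.1 FPKM elsewhere and Ddx3y did not exceed 0.0228 FPKM. Differences that involve the library labelled Gadd45-/-, and the double differences given below, therefore mix genotype label with the sex these markers point to. Depth was estimated at 19500000 to 19900000 fragments per library.

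Fibroblast markers were abundant, and most of the fixed chondrocyte and osteoblast markers were near 0. All 12 fibroblast markers were above 1 FPKM in every library, and their summed level was 13342 FPKM in the wild-type library, 14157 in the library labelled Gadd45-/-, 7895 in the library labelled G3 Terc-/- and 13190 in the library labelled G3 dKO. The 8 chondrocyte markers summed to between 2.14 and 4.05 FPKM, with the cartilage proteoglycan Acan at 0.931 FPKM or less and Lect1 listed at 0 in all libraries. The 8 osteoblast markers summed to between 0.660 and 2.28 FPKM, with the bone regulator Sp7 at 0.219 FPKM or less and Bglap2 listed at 0. Of these 16 markers Col2a1, Col11a2 and Ifitm5 alone exceeded 1 FPKM in any library, at up to 1.94, 1.91 and 1.61 FPKM. Bone and cartilage matrix genes that fibroblasts also express were not low, with Spp1 at 643 to 905 FPKM, Sparc at 1847 to 2796 FPKM and Col11a1 at 34.2 to 45.7 FPKM.

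**Figure D1:**
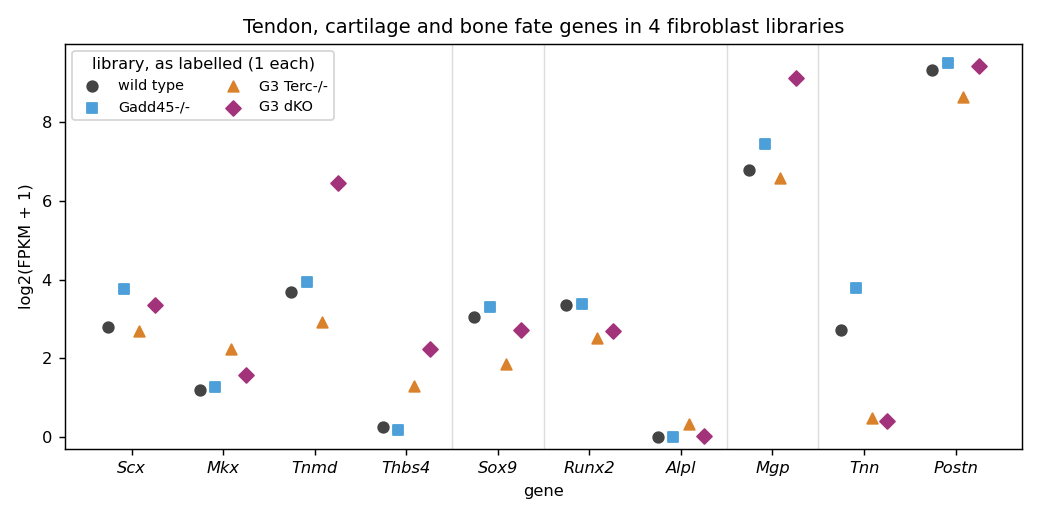
Level of each of the 10 genes on the log2(FPKM + 1) scale in the 4 libraries, 1 point per library, with no error bars because each genotype has 1 library. Tnmd and Mgp are highest in the library labelled G3 dKO, Tnn is near 0 in both G3 libraries, and Alpl is near 0 in all.

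Below, a gene is called higher or lower when log2(FPKM + 1) differs by at least 1 between libraries, a 2-fold difference of FPKM + 1. Between the library labelled G3 Terc-/- and wild type, 2 of the 9 measured genes were higher and 2 lower by this rule, where 9.93% of all measured genes were higher and 6.25% lower. Between the library labelled G3 dKO and that labelled G3 Terc-/-, 2 were higher and none lower, against 1.52% and 4.78% of all measured genes. Under quantile normalization the second pair of libraries had 273 genes higher and 491 lower in place of 176 and 554. Between the library labelled Gadd45-/- and wild type 1 was higher and none lower, against 0.336% and 0.207%. Between the library labelled G3 dKO and that labelled Gadd45-/- 3 were higher and 1 lower, against 2.49% and 2.36%. With a pseudocount of 5 FPKM in place of 1 FPKM, 0 of the genes passed the rule in either comparison with wild type. At that setting 0.104% of all measured genes were higher and 0.0863% lower in the library labelled Gadd45-/- than in wild type. In the library labelled G3 Terc-/- 5.13% were higher and 2.86% lower. The 10 genes were chosen on these values, so nothing is read from the excess over the background, and the comparisons share libraries.

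**Figure D2:**
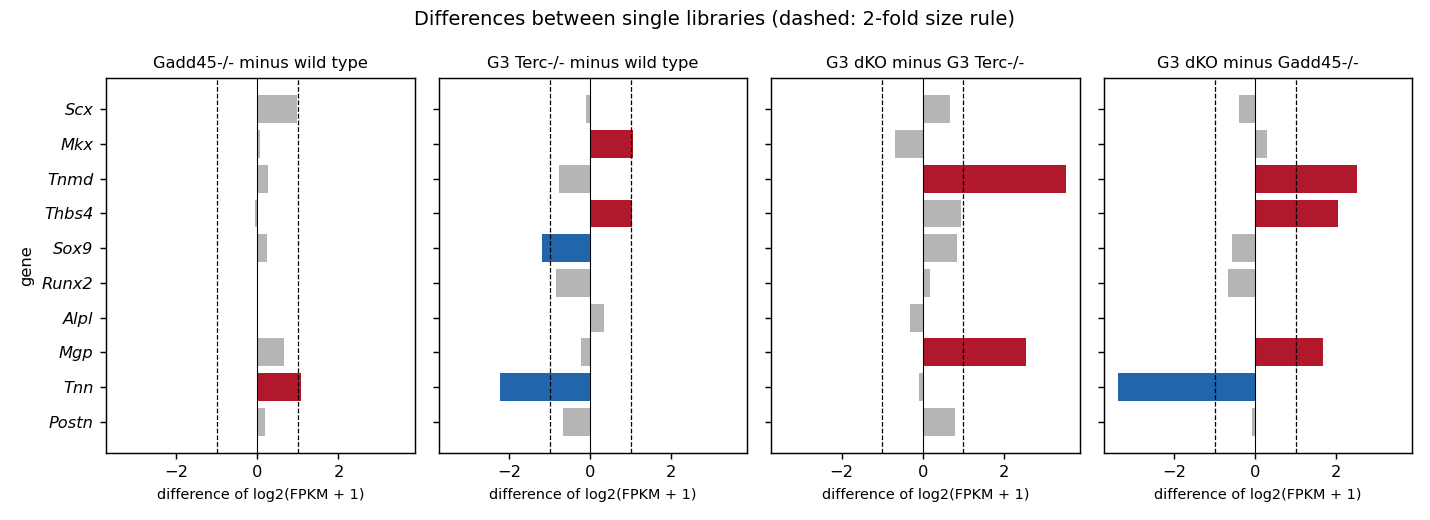
Difference of log2(FPKM + 1) for each gene in the 4 comparisons, with dashed lines at the 2-fold size rule and coloured bars for genes past it. Tnmd reaches 3.54 in the third panel and Tnn -3.39 in the fourth, while in the first panel Tnn alone passes the rule, at 1.07.

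Tnmd, which encodes the type II membrane protein tenomodulin of tendon cells, spanned the widest range on the log2(FPKM + 1) scale, whereas by the plain ratio of highest to lowest FPKM Tnn (40-fold) and Thbs4 (27.7-fold) were ahead of it. It stood at 11.9 FPKM in the wild-type library, 14.3 in the library labelled Gadd45-/-, 6.56 in the library labelled G3 Terc-/- and 86.6 in the library labelled G3 dKO. The last value stands far above the other 3, among which the library labelled G3 Terc-/- is the lowest. The difference between the G3 libraries was 3.54 on the log2 scale, a 13.2-fold ratio of FPKM. That was the fourth highest of 11592 measured genes. The estimated fragment numbers were 149 and 1988, and counting error alone gives a ratio between 11.2 and 15.7. Against the library labelled Gadd45-/- the ratio was 6.05, and against wild type 7.29. In bulk RNA, a larger share of tendon-like cells and more Tnmd RNA per cell cannot be told apart. The 6 fixed tenocyte markers, Tnmd among them, summed to 38.7, 55.8, 23.0 and 115 FPKM, libraries in the order above. Between the libraries labelled G3 dKO and Gadd45-/- the other markers differed in direction. The log2 difference was 2.05 for Thbs4, 0.30 for Mkx, -0.40 for Scx and -0.97 for Fmod, and Kera was listed at 0 in both.

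Tnmd lies on the X chromosome, and the library labelled Gadd45-/- was the one with Y-linked transcripts. The 347 measured X-linked genes had a median log2 difference of -0.05 between the G3 libraries, with 4 of them higher and 12 lower by the size rule. Tnmd itself was 1 of those 4, and the shares of all measured genes were 1.52% and 4.78%. Between the library labelled Gadd45-/- and wild type the median of the X-linked genes was -0.04. None was higher and 1 lower, against 0.336% and 0.207% of all measured genes. Tnmd had a log2 difference of 0.25 in that comparison.

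Thbs4, a thrombospondin of tendon and muscle matrix, followed a different order. Its level was 0.188 FPKM in the wild-type library, 0.134 in the library labelled Gadd45-/-, 1.44 in the library labelled G3 Terc-/- and 3.69 in the library labelled G3 dKO. Both G3 libraries were thus above both Terc-proficient ones, and the library labelled G3 dKO was above the other. On the log2 scale Thbs4 differed by 1.04 between the library labelled G3 Terc-/- and wild type, and by 2.05 between the library labelled G3 dKO and that labelled Gadd45-/-. About 11, 8, 85 and 220 fragments stood behind the levels, so the ratio of the G3 libraries was 2.57 with a counting interval of 1.99 to 3.33. At these numbers no difference was detectable between wild type and the library labelled Gadd45-/-, whose ratio of 0.711 had a counting interval of 0.249 to 1.95. Since the levels are low, the pseudocount compresses these differences, and with 0.1 FPKM in place of 1 FPKM the difference between the library labelled G3 Terc-/- and wild type was 2.42.

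The promoters of Tnmd and Thbs4, whose levels were both highest in the library labelled G3 dKO, are shown for their base composition and for the E-box CANNTG, the motif class bound by Scx. They span 250 bases before to 50 after the start in RefSeq on build GRCm38.p6, which is not the files' build. Tnmd lies at chrX:133850758-133851057 on the plus strand and Thbs4 at chr13:92794769-92795068 on the minus strand. Capitals mark matches to CANNTG or to the RUNX motif TGTGGT, searched on both strands.
Tnmd promoter: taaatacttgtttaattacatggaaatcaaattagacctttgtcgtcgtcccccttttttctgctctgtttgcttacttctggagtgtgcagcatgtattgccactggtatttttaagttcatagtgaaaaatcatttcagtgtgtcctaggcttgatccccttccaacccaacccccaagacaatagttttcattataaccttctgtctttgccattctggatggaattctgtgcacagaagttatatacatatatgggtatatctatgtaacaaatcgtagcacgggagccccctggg
Thbs4 promoter: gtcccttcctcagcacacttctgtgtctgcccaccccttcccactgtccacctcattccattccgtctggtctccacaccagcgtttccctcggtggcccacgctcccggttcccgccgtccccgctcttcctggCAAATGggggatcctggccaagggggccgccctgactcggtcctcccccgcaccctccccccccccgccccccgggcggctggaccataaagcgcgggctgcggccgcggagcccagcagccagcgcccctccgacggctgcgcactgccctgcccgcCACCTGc
The Tnmd window held 40% G and C with no match to either motif, and the Thbs4 window 72% with 2 matches to CANNTG. Of 32851 promoter windows 72.3% held CANNTG at least once and 16.8% held TGTGGT. The letters AACAAT, a SOX-type motif, and TATAAA, the TATA box, were in 10.7% and 13.6% of windows and in neither of these.

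Scx and Mkx, the tendon transcription factors, did not share the order of Tnmd over the libraries. Scx stood at 5.93 FPKM in the wild-type library, 12.6 in the library labelled Gadd45-/-, 5.44 in the library labelled G3 Terc-/- and 9.25 in the library labelled G3 dKO. The libraries labelled with Gadd45 loss held the higher values on both backgrounds, as they did for Tnmd. The ratio was 2.12 without Terc deficiency, with a counting interval of 1.65 to 2.71, and 1.70 between the G3 libraries, with an interval of 1.31 to 2.25. On the log2(FPKM + 1) scale these are 0.97 and 0.67, the first just under the size rule. The library labelled G3 Terc-/- was not distinguishable from wild type by counting, with a ratio of 0.916 and an interval of 0.673 to 1.22.

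Mkx encodes the Mohawk homeobox factor. It was at 1.28 FPKM in the wild-type library, 1.40 in the library labelled Gadd45-/-, 3.72 in the library labelled G3 Terc-/- and 1.96 in the library labelled G3 dKO. It was the single gene among the measured 9 with its highest level in the library labelled G3 Terc-/-, where 38.9% of all measured genes peaked. Its log2 difference from wild type there was 1.05, just past the rule, and 0.82 under quantile normalization, which ends the call, as it does for Thbs4 at 0.84. The ratio of Tnmd to Scx was 2.0 in the wild-type library, 1.14 in the library labelled Gadd45-/-, 1.21 in the library labelled G3 Terc-/- and 9.37 in the library labelled G3 dKO, so the gap between marker and factor was widest in the last.

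Sox9, the master regulator of chondrocyte formation, was lowest in the library labelled G3 Terc-/-. Its levels were 7.29 FPKM in the wild-type library, 8.81 in the library labelled Gadd45-/-, 2.62 in the library labelled G3 Terc-/- and 5.58 in the library labelled G3 dKO. The log2 difference from wild type was -1.19 in the library labelled G3 Terc-/-, and the difference between the G3 libraries was 0.86, so the double-labelled library lay between the other G3 library and wild type. The related Sox5 and Sox6, which act with Sox9 in cartilage, were at 0.509 FPKM or less in every library, and Sox8 at 0.125 FPKM or less.

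Runx2, the regulator that commits cells to bone, separated the libraries by Terc label. Its levels were 9.20 FPKM in the wild-type library, 9.33 in the library labelled Gadd45-/-, 4.70 in the library labelled G3 Terc-/- and 5.45 in the library labelled G3 dKO. The Terc-proficient libraries did not differ beyond counting error, with a ratio of 1.01 and an interval of 0.933 to 1.10, and both lay above both G3 libraries. The log2 differences of the G3 libraries from their Terc-proficient counterparts were -0.84 and -0.68, under the size rule. The relative Runx3 was likewise lower in both G3 libraries, at 5.49, 5.33, 0.0412 and 0.0816 FPKM in the wild-type library and those labelled Gadd45-/-, G3 Terc-/- and G3 dKO. Runx1 was at 17.8, 14.6, 7.84 and 13.0 FPKM, libraries in that order, and the shared partner Cbfb at 38.5, 36.5, 26.4 and 33.4 FPKM.

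The Runx2 window in the promoter table, at chr17:44814578-44814877 on the minus strand of GRCm38.p6, is shown because it holds the motif of its own protein family. It has 3 matches to TGTGGT or its complement ACCACA and 2 to CANNTG, some of which overlap.
Runx2 promoter: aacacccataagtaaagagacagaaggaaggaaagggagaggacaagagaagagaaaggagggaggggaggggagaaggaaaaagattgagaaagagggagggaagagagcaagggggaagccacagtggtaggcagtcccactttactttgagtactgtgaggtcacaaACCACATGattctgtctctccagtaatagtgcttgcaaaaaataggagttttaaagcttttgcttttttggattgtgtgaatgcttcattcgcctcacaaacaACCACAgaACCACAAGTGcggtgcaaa
The Runx2 level was lower in both G3 libraries, and none of these letters was measured for binding here.

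Alpl, the tissue-nonspecific alkaline phosphatase of bone-forming cells, was barely present. It was listed at 0 in wild type and in the library labelled Gadd45-/-, at 0.263 FPKM in the library labelled G3 Terc-/- and at 0.0217 FPKM in the library labelled G3 dKO. The last 2 values stand for about 12 and 1 fragments. It is the gene that failed the filter on low values, and no ratio is given.

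Mgp, a vitamin K-dependent protein that inhibits calcification of cartilage and vessels, had an order like that of Tnmd at a much higher level. It stood at 109 FPKM in the wild-type library, 174 in the library labelled Gadd45-/-, 93.8 in the library labelled G3 Terc-/- and 556 in the library labelled G3 dKO. As with Tnmd, the library labelled G3 dKO stands apart from the other 3. The ratio of the G3 libraries was 5.93 with a counting interval of 5.49 to 6.41, and the log2 difference of 2.55 was the eleventh highest of all measured genes. Mgp exceeded 93.7% of measured genes in wild type and 98.8% in the library labelled G3 dKO. Osteocalcin, Bglap, which shares with Mgp the gamma-carboxylated type of domain, was at 0.343 FPKM or less throughout.

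Tnn, which encodes tenascin-N (tenascin-W), a matrix protein of developing bone and tendon surroundings, marked the Terc label most sharply. Its levels were 5.61 FPKM in the wild-type library, 12.9 in the library labelled Gadd45-/-, 0.407 in the library labelled G3 Terc-/- and 0.322 in the library labelled G3 dKO. Both G3 libraries were far below both Terc-proficient ones. The wild-type level was 13.8-fold that of the library labelled G3 Terc-/-, and the level in the library labelled Gadd45-/- was 40-fold that of the library labelled G3 dKO. The latter log2 difference, -3.39, was the sixth lowest of all measured genes. Between the Terc-proficient libraries Tnn differed by 1.07 on the log2 scale, whereas between the G3 libraries about 45 and 36 fragments left a ratio of 0.791 with a counting interval of 0.496 to 1.26. Other tenascins did not share this order, with Tnc at 713, 761, 1057 and 823 FPKM in the wild-type library and those labelled Gadd45-/-, G3 Terc-/- and G3 dKO, and Tnxb at 0.284, 0.444, 1.74 and 1.01 FPKM.

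The Tnn window, at chr1:160153526-160153825 on the minus strand of GRCm38.p6, is shown as that of the gene that was near 0 in both G3 libraries.
Tnn promoter: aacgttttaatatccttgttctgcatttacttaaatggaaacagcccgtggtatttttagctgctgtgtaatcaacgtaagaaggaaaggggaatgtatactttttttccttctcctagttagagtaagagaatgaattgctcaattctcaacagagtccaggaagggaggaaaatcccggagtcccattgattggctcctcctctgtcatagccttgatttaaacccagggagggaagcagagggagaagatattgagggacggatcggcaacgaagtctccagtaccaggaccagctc
It held 44.3% G and C and none of the 4 motifs searched. Promoter windows were matched for 6 of the 10 genes (Tnmd, Thbs4, Runx2, Tnn, Alpl and Postn).

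Postn encodes periostin, a secreted protein of periosteum, tendon and other collagen-rich tissue, and was among the most abundant transcripts. It stood at 636 FPKM in the wild-type library, 727 in the library labelled Gadd45-/-, 399 in the library labelled G3 Terc-/- and 690 in the library labelled G3 dKO. The library labelled G3 Terc-/- was the low one, and the other 3 were close together. Postn exceeded between 98.3% and 99.1% of measured genes in every library. The ratio of the G3 libraries was 1.73, with a log2 difference of 0.79, under the size rule. Under quantile normalization that difference was 1.04, and those of Sox9 and Thbs4 were 1.01 and 1.11, so these 3 then passed the rule. Its paralogue Tgfbi stood at 9.23, 12.2, 8.95 and 41.1 FPKM with the libraries in that order, with a log2 difference of 2.08 between the G3 libraries.

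The 9 measured genes thus fell into several orders of the libraries. The lowest level lay in the library labelled G3 Terc-/- for 6 of them (Tnmd, Scx, Mgp, Sox9, Runx2 and Postn), where 34.2% of all measured genes had their lowest level. The highest lay in the library labelled Gadd45-/- for 5 (Scx, Sox9, Runx2, Tnn and Postn), against 14.7% of all measured genes, and in the library labelled G3 dKO for 3 (Tnmd, Mgp and Thbs4), against 15.5%. None peaked in the wild-type library, where 30.9% of all measured genes did. These counts describe genes chosen on the same values.

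The double difference subtracts the difference between the Terc-proficient libraries from that between the G3 libraries. It was 3.28 for Tnmd, 1.89 for Mgp and 1.01 for Thbs4, and -1.16 for Tnn. The other 6 lay between -0.75 for Mkx and 0.62 for Sox9, and the median over the 10 genes was 0.38. Among the 10 genes, Tnmd and Mgp therefore had the most unequal differences under the Gadd45 label on the 2 backgrounds. The library labelled Gadd45-/- alone held Ddx3y with little Xist, so label and sex cannot be told apart in these values.

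Profiles most like the 3 genes of widest range were sought among 8483 genes with an average of at least 5 FPKM. Likeness was the root mean square distance of log2(FPKM + 1) after each gene's mean was taken off, over 4 libraries. Nearest to Tnmd were Mgp at 0.38, the smooth muscle actin Actg2 at 0.51 and Tgfbi at 0.52. For Mgp they were Actg2 at 0.20, Tgfbi at 0.20 and the insulin-like growth factor binding protein Igfbp3 at 0.37. For Tnn they were the matrix protein gene Coch at 0.22, the basement membrane collagen Col18a1 at 0.35 and Fndc1 at 0.40. Actg2 stood at 146, 194, 108 and 504 FPKM in the wild-type library and those labelled Gadd45-/-, G3 Terc-/- and G3 dKO.

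**Figure D3:**
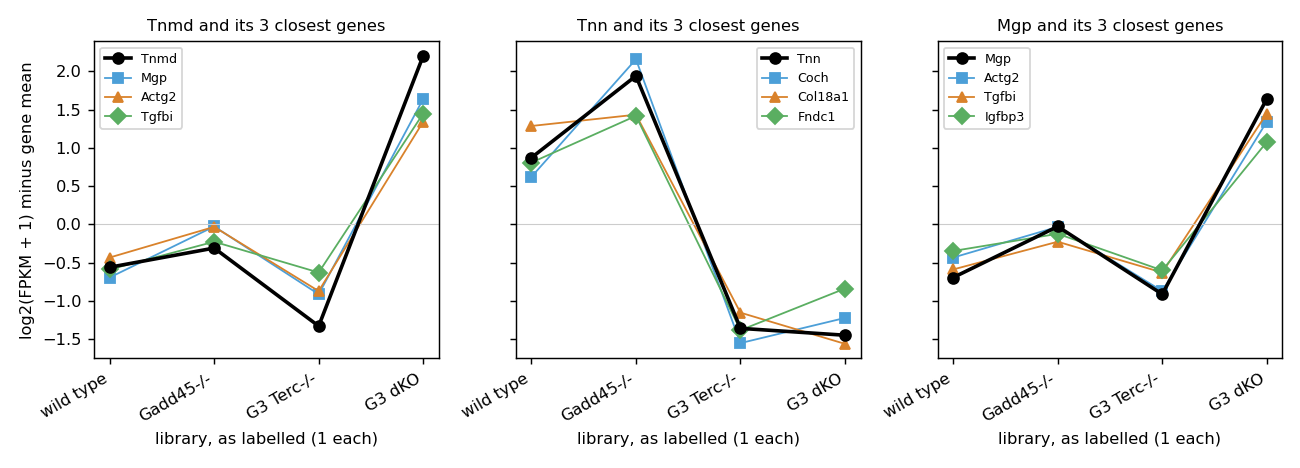
Profiles of Tnmd, Tnn and Mgp over the 4 libraries with those of their 3 closest genes, as log2(FPKM + 1) minus each gene's mean. In the left and right panels every line is highest in the library labelled G3 dKO, and in the middle panel every line is low in both G3 libraries.

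The wider tendon genes differed in direction among themselves. Of 36 listed, 27 were measured, and 6 were higher and 6 lower in the library labelled G3 Terc-/- than in the wild-type library. The shares of all measured genes were 9.93% and 6.25%. Mkx and Thbs4, picked on these values, were 2 of the 6 higher. The list's median was -0.11 against 0.0059 over all measured genes. Dcn, the collagen-binding proteoglycan decorin, stood at 25.6 FPKM in the wild-type library and 584 in the library labelled G3 Terc-/-, and its relative Lum at 4.87 and 42.6 FPKM. Aspn, a further small proteoglycan, was lower there, at 91.8 and 21.3 FPKM. Between the G3 libraries 6 were higher and 3 lower in the library labelled G3 dKO, against 1.52% and 4.78% of all measured genes. The median was 0.47 against -0.03. The 3 lower were Dcn at 67.0 FPKM, Lum at 5.49 FPKM and the mechanically induced tendon factor Egr1 at 21.8 against 72.8 FPKM. The higher ones beside Tnmd, named after their values were seen, were Col1a1, Col3a1, Col5a1, Col14a1 and Fmod. Fmod, a tendon collagen organiser, stood at 5.65 and 13.5 FPKM, and Col1a1, the main fibrillar collagen chain, at 1697 and 4037 FPKM. In the wild-type library and that labelled Gadd45-/- Fmod stood at 19.4 and 27.3 FPKM and Col1a1 at 4270 and 4565 FPKM. Both genes were thus lower in the library labelled G3 dKO than in either Terc-proficient library. Col3a1, in contrast, was highest in the library labelled G3 dKO, at 812 FPKM. Between the libraries labelled G3 dKO and Gadd45-/- the list's median was 0.007 against -0.01 over all measured genes. None of the 27 passed the rule between the Terc-proficient libraries, where 0.336% of all measured genes were higher and 0.207% lower.

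Cartilage genes were few. Only 10 of 36 were measured, and in the library labelled G3 Terc-/- 4 were lower and none higher than in the wild-type library. The shares of all measured genes were 6.25% and 9.93%. The list's median was -0.77 against 0.0059 over all measured genes. Of the 4 lower, Sox9 was picked on these values. The others were Runx3, Col10a1, the collagen of hypertrophic cartilage, at 2.70 and 0.208 FPKM, and Col2a1, the main cartilage collagen, at 1.94 and 0.161 FPKM. Between the G3 libraries Foxc2, a mesenchymal forkhead factor, was the 1 gene higher, at 3.46 and 8.61 FPKM, against 1.52% of all measured genes. The median was 0.58 against -0.03. Between the Terc-proficient libraries 2 were higher in the library labelled Gadd45-/-, where 0.336% of all measured genes were. They were Col10a1 at 7.56 FPKM and Barx1 at 2.81 against 0.797 FPKM, the latter named after its value was seen.

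Bone genes also split. Of 36 listed 17 were measured, and the library labelled G3 Terc-/- had 2 higher and 2 lower than wild type. The shares of all measured genes were 9.93% and 6.25%. The list's median was -0.49 against 0.0059 over all measured genes. Higher were the homeobox factor Msx2, at 2.59 and 7.51 FPKM, and Twist2, at 170 and 357 FPKM, a repressor of bone differentiation. Lower were Snai2, at 35.7 and 15.3 FPKM, and Msx1. In the library labelled G3 dKO Twist2 stood at 56.1 FPKM, the 1 bone gene lower between the G3 libraries, with none higher. The shares of all measured genes were 4.78% and 1.52%. The list's median there was 0.18 against -0.03. Twist1, related to Twist2, stood between 35.5 and 56.0 FPKM in all libraries, with no log2 difference past the rule.

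The next list held regulators of mineral. Of 20 listed 11 were measured, with 1 higher and 1 lower in the library labelled G3 Terc-/- than in wild type. The shares of all measured genes were 9.93% and 6.25%. The list's median was -0.09 against 0.0059 over all measured genes. The lower was the phosphate transporter Slc20a1, at 104 and 20.9 FPKM, and the higher was Gas6, a vitamin K-dependent ligand, at 67.8 and 217 FPKM. Between the G3 libraries 2 were higher and none lower, against 1.52% and 4.78% of all measured genes. They were Mgp, picked on these values, and Ank, a transporter-type protein that raises extracellular pyrophosphate, at 11.4 and 35.4 FPKM. The median was 0.03 against -0.03.

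A list of 18 genes, matricellular ones with the membrane protein gene Tnmd and its relative Lect1, had 13 measured. In the library labelled G3 Terc-/- 1 was higher, Thbs4, and 3 lower than in the wild-type library. The shares of all measured genes were 9.93% and 6.25%. The list's median was -0.14 against 0.0059 over all measured genes. The lower ones beside Tnn were Smoc2, at 27.2 and 7.62 FPKM, and Smoc1, at 2.51 and 0.295 FPKM. Between the G3 libraries 3 were higher and none lower, against 1.52% and 4.78% of all measured genes. They were Tnmd, picked on these values, Smoc2 at 45.2 FPKM in the library labelled G3 dKO, and Tgfbi. The median was 0.58 against -0.03. Of the other thrombospondins, Thbs1 stood between 2290 and 4332 FPKM, Thbs2 between 218 and 255 FPKM and Thbs3 between 12.7 and 21.0 FPKM, and none passed the rule in any of the 4 comparisons. Comp, the cartilage thrombospondin, was at 0.474 FPKM or less.

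Factors that pattern limb and trunk mesenchyme held no common direction. Of 33 listed 29 were measured, with 4 higher and 4 lower in the library labelled G3 Terc-/- than in wild type. The shares of all measured genes were 9.93% and 6.25%. The list's median was -0.02 against 0.0059 over all measured genes. Irx3 and Irx5, homeobox relatives of Mkx, stood at 10.5 and 1.58 FPKM and at 9.90 and 3.02 FPKM, whereas the muscle and limb factor Meox2 stood at 0.478 and 3.92 FPKM. Between the G3 libraries Osr2 was higher in the library labelled G3 dKO, at 0.370 and 2.89 FPKM, and Hand2 lower, at 8.63 and 2.99 FPKM. There the list's median was 0.0038 against -0.03 over all measured genes.

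**Figure D4:**
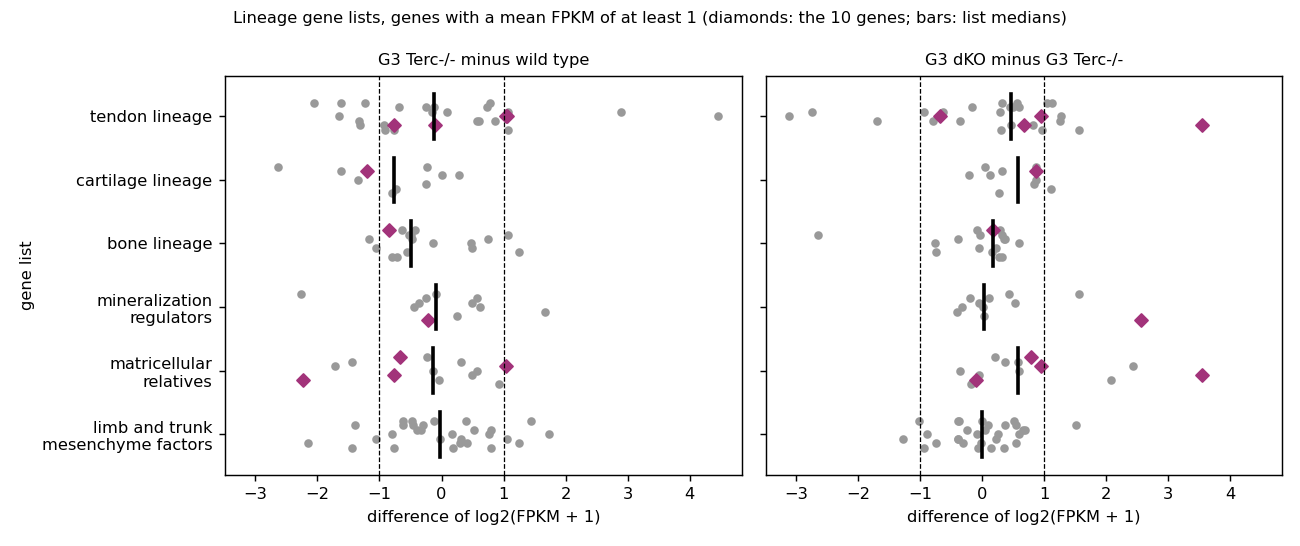
Differences of log2(FPKM + 1) for the measured genes of 6 lists, with diamonds for the 10 genes, black bars for list medians and dashed lines at the 2-fold rule. The tendon list spreads from -2.06 to 4.46 in the left panel, and in the right panel Tnmd is the farthest right at 3.54.

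Some markers of other cells differed along with these values. Skeletal muscle markers summed to 39.3 FPKM in the wild-type library, 57.0 in the library labelled Gadd45-/-, 67.5 in the library labelled G3 Terc-/- and 121 in the library labelled G3 dKO. Almost all of that was the actin Acta1, at 38.0 to 120 FPKM, while Myod1 was at 0.0621 FPKM or less and Myf5 and Pax7 were listed at 0. Neural and glial markers summed to between 44.8 and 56.2 FPKM in 3 libraries and 102 FPKM in the library labelled G3 dKO, led by Tubb3 at 77.0 FPKM there, with Sox10 at 0.531 FPKM or less throughout. Macrophage and blood markers summed to between 4.29 and 5.51 FPKM and to 15.5 FPKM in the library labelled G3 dKO, led by Lyz2 at 11.5 FPKM, with Ptprc at 0.0795 FPKM or less. Adipocyte markers were highest in the library labelled G3 Terc-/-, at 35.3 FPKM against 8.62 to 14.1 FPKM, through Fabp4 at 32.2 FPKM, with Plin1 listed at 0. Endothelial markers summed to between 1.34 and 2.01 FPKM, epithelial ones to 9.22 FPKM in the wild-type library and 1.67 to 2.73 FPKM elsewhere, and liver ones to 8.34 FPKM in the wild-type library and 0.396 FPKM or less elsewhere. Mki67, transcribed in cycling cells, was at 27.9, 24.1, 2.97 and 8.69 FPKM in the wild-type library and those labelled Gadd45-/-, G3 Terc-/- and G3 dKO. The part of these shifts in the levels of the 10 genes was not tested.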

How the data were processed

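RNA sequencing covered 4 genotypes of mouse embryonic fibroblast, each with 1 poly(A)-selected library. The authors deposited FPKM values, 1 per gene symbol, with 23235 symbols in each table. Per the submitters' processing notes the tools were TopHat2 2.1.1 and Cufflinks 2.2.1 and the build mm9. Which annotation, strand setting or filter was used is not given in the sources used here. Each gene has 1 value, so isoforms could not be separated, and a few very abundant transcripts lower all other values of a library.

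Symbols of short RNA, 736 in all, were left out. Differences were taken on log2(FPKM + 1), a scale that understates differences of low genes, with Python 3.11.15 and pandas 2.3.3, and the scripts were tested on simulated data. Genes with an average of at least 1 FPKM were counted as measured. With 1 library per genotype no test between genotypes was run, and no error across replicates or p-value is given. The counting intervals of single genes are no such test.

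Depth was estimated from FPKM of at most 0.05 on single-transcript genes of 1500 to 8000 nt, assuming 200 nt fragments. Between 75.5% and 81.1% of those values lay within 0.1 of a whole fragment, which is no independent check. Fragment numbers used the longest coding transcript in GENCODE M21, and their 95% intervals (exact binomial on the pair, Clopper-Pearson) cover counting error only.

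The genes, lists and markers were chosen with earlier results of these data known. All 10 genes were named, with up to 3 genes per list past the size rule in each of 2 comparisons, the sequence relatives of the 10 genes and the 3 closest profiles. Alternatives were pseudocounts of 0.1 and 5 FPKM, median-of-ratios size factors (0.977 to 1.01), quantile normalization, a 1.5-fold rule and no filter on low values. Of the genes that this rule selects, 1 is not reported here.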

Additional observations from a re-analysis of the deposited data

Results flagged for a closer look

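Tnmd and Mgp differed in opposite directions under the same label on the 2 backgrounds, with a double difference of at least 1 in size. Each rests on 1 library per genotype and was not tested, and the library labelled Gadd45-/- also differs in sex markers. The library labelled G3 Terc-/- was lower in Tnmd than wild type, by -0.77 on the log2 scale, and the library labelled G3 dKO was higher than that labelled Gadd45-/-, by 2.52, a double difference of 3.28. Mgp showed the same pair of directions, -0.22 and 1.67, with a double difference of 1.89. Its first difference was small, and 34.3% of all measured genes were lower still in that comparison.

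Tnn and Thbs4 have opposite signs as well, but 1 of the 2 differences is within counting error for each. For Tnn the difference under the Gadd45 label was 1.07 between Terc-proficient libraries and -0.09 between G3 libraries, where it was near 0, a double difference of -1.16. The second was 0.01 under quantile normalization, so the signs were then not opposite. For Thbs4 the same label went with -0.07, on about 11 and 8 fragments, and 0.95, a double difference of 1.01. With a pseudocount of 5 FPKM these double differences were -0.78 for Tnn and 0.45 for Thbs4. None of these was tested.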

How the results depend on the processing

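Counts of the 10 genes past the size rule depended on the pseudocount, on quantile normalization and on the rule itself. At 0.1 FPKM as pseudocount, 2 genes were higher in the library labelled Gadd45-/- than in wild type (Scx and Tnn), against 1.07% of all measured genes. At that setting 4 were higher in the library labelled G3 dKO than in that labelled G3 Terc-/- (Tnmd, Mgp, Sox9 and Thbs4), against 2.98%. With a pseudocount of 5 FPKM the first count was 0, where 0.104% of all measured genes were higher. Between the library labelled G3 Terc-/- and wild type 0 were then higher and 0 lower, against 5.13% and 2.86%. Quantile normalization gave 0 higher in that last comparison, against 8.70% of all measured genes. Between the G3 libraries it gave 5 higher, against 2.36%, adding Sox9, Postn and Thbs4. At a 1.5-fold rule 3 were higher in the library labelled Gadd45-/- than in wild type, against 1.75% of all measured genes. In the library labelled G3 Terc-/- 5 were lower than in wild type, against 15.2%. Between the G3 libraries 6 were higher and 1 lower (Mkx), against 6.17% and 10.7%. Between the library labelled G3 dKO and that labelled Gadd45-/- 2 were lower, against 7.83%. Tnmd and Mgp were higher between the G3 libraries under every alternative run. No difference past the rule changed direction. The 1.5-fold rule and the setting without a filter gave counts only. Each alternative pseudocount and normalization gave 50 values for the 10 genes, made up of differences between libraries and of double differences. Of these, 8 moved by more than 1.5-fold with a pseudocount of 0.1 FPKM and 4 with 5 FPKM. All were of Alpl, Tnn or Thbs4, and none moved with either normalization. No paired analysis was possible because each genotype has 1 library, and for the same reason no library could be left out.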
